A study of Mus musculus with 2 samples.

Results

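The 10 transcription factors described here mark or drive the path from neural progenitor to dentate granule neuron: Prox1, Neurod1, Neurod2, Neurod6, Eomes, Tbr1, Sox4, Sox11, Bcl11b and Zbtb20. They were chosen by gene symbol from the 33696 genes of the count matrices, and all 10 were found. Single-nucleus RNA sequencing had been run on the hippocampus of mice at postnatal day 19, with 1 control library and 1 library labelled knockout. Control mice were Cicflox/flox, so they carried floxed alleles of Cic without a Cre. The other mice, their littermates, were Emx1-Cre; Cicflox/flox, and the floxed alleles are therefore common to both groups. Each library pooled 1 hippocampus from each of its 3 mice, 2 males and 1 female. Emx1-Cre acts in progenitors of the dorsal telencephalon, so granule and pyramidal neurons and many glia descend from recombined cells, whereas interneurons and microglia do not. Cic encodes Capicua, a transcriptional repressor that binds short octamer sites, and the title of the series concerns mossy fibers, the axons of granule cells.

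Granule neurons are made after birth in the dentate gyrus. Radial glia-like cells give rise to dividing progenitors, these pass through an intermediate progenitor stage that expresses Eomes (TBR2), and newborn neurons then mature in the granule layer. Neurod1 and the SoxC factors Sox4 and Sox11 act early in neuronal differentiation, Prox1 specifies and maintains granule identity, and Bcl11b (CTIP2) and Zbtb20 serve in postmitotic maturation and in the identity of hippocampal neurons. Neurod2 and Neurod6 are related basic helix-loop-helix factors of excitatory neurons, and Tbr1 is a T-box factor that follows Eomes in glutamatergic lineages.

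One promoter sequence is shown, that of Neurod6, because Capicua is known for octamer sites and because this member had the largest ratio between the libraries in mature granule nuclei. The 250 bases upstream of the annotated start of each member were searched on both strands for the octamers TGAATGAA, TGAATGGA, TCAATGAA and TCAATGGA, with a window counted once where matches overlapped. All 10 members had a RefSeq window (GRCm38.p6), and Prox1 had 2. Only the window of Neurod6 held a match, TGAATGGA, whose first base lies 158 bases upstream of the start. The stretch around it, at chr6:55681384-55681451 of GRCm38.p6 on the minus strand, is given 5′ to 3′ with the octamer in capitals.
Neurod6: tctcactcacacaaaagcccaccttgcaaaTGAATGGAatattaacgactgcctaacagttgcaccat
Among 27025 genes with such a window, 1.18% held TGAATGGA and 3.71% held any of the 4 octamers, and the match describes these letters only.

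Unique molecular identifiers (UMIs) numbered 314453640 over 25907 barcodes in the control and 252995761 over 23207 barcodes in the library labelled knockout. Filtering and removal of called doublets left 21783 and 20569 nuclei, with medians of 9786 and 8765 UMIs. The libraries shared 175 barcode sequences. Since each group was 1 library, no difference has a replicate check and none was tested. Intervals are 95% and cover counting error only, not differences between mice or preparations. Levels are given in CPM, a gene's count scaled by all UMIs of the class, and ratios are log2 of labelled knockout over control. Paired values give the control first and the library labelled knockout second. Nuclei were also called female or male from Xist and Y-linked UMIs, which splits each pool into 1 mouse and 2 mice.

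Cic itself was no lower over all nuclei of the library labelled knockout (9.85 and 14.02 CPM; 2542 and 3028 UMIs). It stood at 9.13 and 12.6 CPM in mature granule-like nuclei (513 and 514 UMIs). The labels do not say which part of Cic is floxed, and 3′ tags outside a deleted part would not show the deletion. Etv4, an ETS factor known as a Capicua target, did separate the libraries, with 61 and 4589 UMIs in mature nuclei and 17 and 1297 in immature nuclei. Microglia-like nuclei had 14 and 84 Etv4 UMIs. Because the counts of Cic itself do not show the deletion, the second library is called the library labelled knockout throughout.

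Nuclei were clustered without the 10 members, and clusters were named from separate marker genes, so names end in "-like" and the members did not set them. The rules that turned clusters into stages were set after the clusters had been seen. Eomes was used in 1 of them, to pick a cluster that led with markers of intermediate progenitors. Only 2 of those markers were detected widely enough, too few for a name, so it is called Eomes-positive, after an Eomes level of at least 20 CPM. Its intermediate progenitor markers summed to 979 and 1080 CPM, against 408 and 436 CPM in immature granule-like nuclei. Its immature granule markers summed to 2020 and 1923 CPM, against 1727 and 1772 CPM in those nuclei. The stage is therefore not read as progenitors alone. The cycling stage is the 1 of 3 dividing clusters whose next-best markers were of the granule lineage. It had 83 control nuclei and 86 of the library labelled knockout. The Eomes-positive stage had 231 and 195 nuclei, immature granule-like nuclei numbered 2409 and 2596, and mature granule-like nuclei 4586 and 3669. Total UMIs behind a CPM were 380453 and 312904 in the cycling stage but 56197998 and 40772789 in the mature stage, so the early stages carry far wider intervals.

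The mature class was not made of the same clusters in both libraries. Of control mature nuclei, 72.5% lay in cluster 0, 22% in cluster 1 and 5.45% in cluster 2, against 2.94%, 41.8% and 55.2% of mature nuclei in the library labelled knockout. Clusters 0 and 2 are thus each mostly 1 library, and with 1 library per group a library and a cell state cannot be told apart as the source of this split. The 3 immature clusters, 4, 3 and 20, held 40.9%, 44.1% and 14.9% of control immature nuclei and 46%, 43.9% and 10.1% of those in the library labelled knockout. By the summed levels of immature and mature markers they order as cluster 4, then 3, then 20, followed by mature cluster 1. Markers differed between the libraries inside the mature class. The 10 mature granule markers summed to 4945 and 3751 CPM, with 3 of 10 higher in the library labelled knockout. Immature granule markers summed to 127 and 155 CPM (9 of 10 higher), and intermediate progenitor markers to 46.2 and 72.3 CPM (6 of 9 higher), and none of these markers was at 0 in either library. Earlier stages differed too. In cycling nuclei, intermediate progenitor markers summed to 520 and 780 CPM (8 of 9 higher) and cycling markers to 4723 and 5813 CPM (8 of 9 higher). At the Eomes-positive stage cycling markers summed to 109 and 219 CPM (8 of 9 higher). Mature granule markers in immature nuclei summed to 1577 and 1299 CPM (2 of 10 higher). Median depth was 11736 and 10659 UMIs in mature nuclei and 4562 and 3614.5 in immature nuclei, and the median share of mitochondrial UMIs was 0.0153% and 0.0311% in mature and 0.0474% and 0.0919% in immature nuclei. The part of these differences in the ratios given here was not tested.

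**Figure D1:**
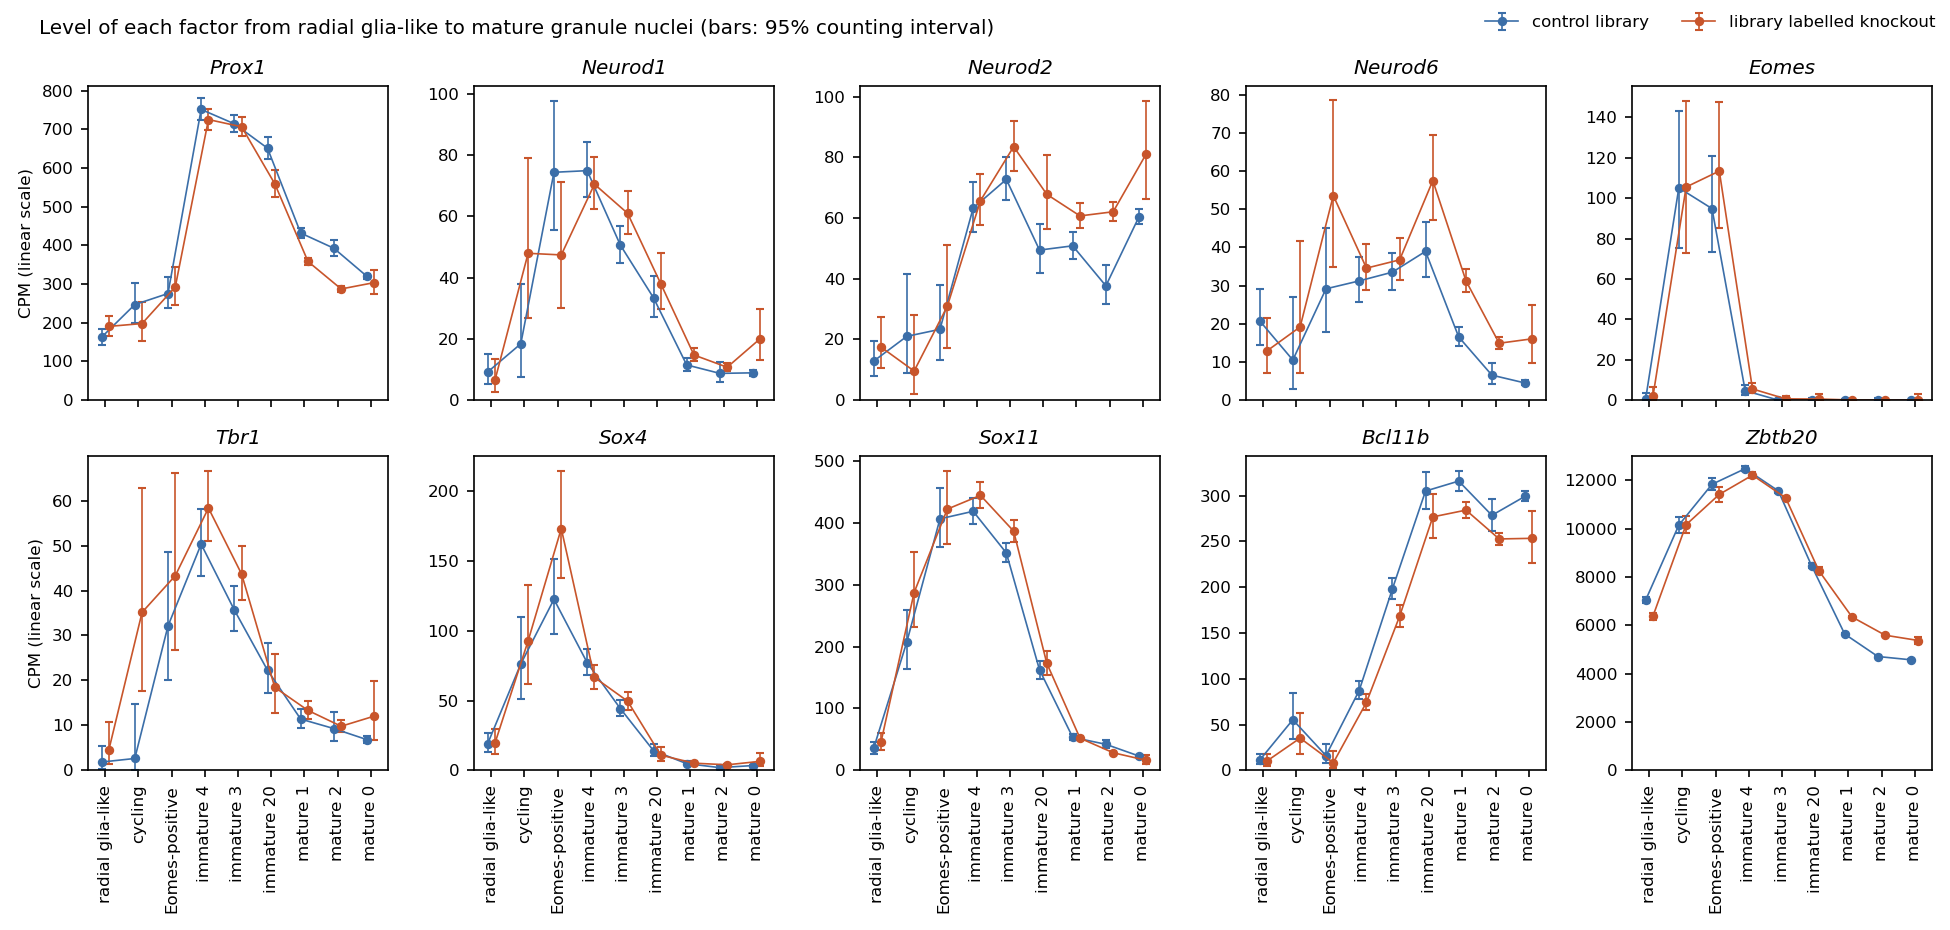
Level in CPM (linear axis, from 0) of each factor in radial glia-like nuclei, cycling and Eomes-positive nuclei and each immature and mature granule-like cluster, with 95% counting intervals and lines that only join the points. Eomes stands between 94.8 and 113 CPM in the cycling and Eomes-positive stages and near 0 elsewhere, Sox4 peaks at the Eomes-positive stage, and Bcl11b is low until the immature clusters.

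Eomes, the T-box factor of intermediate progenitors, was high at the first stages and near 0 afterwards in both libraries. Radial glia-like nuclei gave 1 and 2 UMIs. In the cycling stage Eomes stood at 105.1 and 105.5 CPM (40 and 33 UMIs). Eomes-positive nuclei, chosen through this gene, had 94.8 and 113 CPM (65 and 55 UMIs). The ratio was 0.01 in the cycling stage (interval -0.71 to 0.71) and 0.26 in the Eomes-positive stage (-0.29 to 0.80), so neither library was detectably higher at this depth. A UMI of Eomes was found in 31.3% and 24.4% of cycling nuclei and in 19.9% and 19.0% of Eomes-positive nuclei, against 0.269% and 0.0678% of microglia-like nuclei, which should lack it, at median depths of 3743 and 3528.5 UMIs, 2807 and 2324 UMIs, and 2130 and 1718.5 UMIs. By the immature stage the gene had fallen to 1.39 and 2.40 CPM, log2 steps of -6.07 and -5.55 from the Eomes-positive stage. What was left sat mostly in cluster 4, the least mature, with 17 of 17 control UMIs and 21 of the 25 others. The mature class had 5 and 1 UMIs, and no ratio is read from them. Gm33460 overlaps Eomes on the opposite strand.

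Sox4 and Sox11 encode SoxC proteins that open the neuronal programme in new neurons. Sox11 rose from 35.5 and 45.1 CPM in radial glia-like nuclei to 208 and 288 CPM in cycling nuclei, and reached 407 and 423 CPM at the Eomes-positive stage. It held at 325 and 370 CPM in immature nuclei and fell to 29.8 and 36.2 CPM in mature ones, a log2 step of -3.44 in the control library, against -3.35 in the library labelled knockout. Immature cluster 4 alone had 419 and 445 CPM of Sox11, with intervals that overlap those of the Eomes-positive stage. By stage, Sox4 also peaked in Eomes-positive nuclei. It had the larger drop into immature nuclei, with log2 steps of -1.41 and -1.83 against -0.33 and -0.19 for Sox11. Its CPM was 76.2 and 92.7 in cycling nuclei, 123 and 173 at the Eomes-positive stage, 46.4 and 48.9 in immature nuclei and 3.56 and 4.42 in mature ones. Within the immature class both already declined along the clusters: from cluster 4 to 3 to 20, control Sox11 went from 419 to 352 to 162.5 CPM and control Sox4 from 77.1 to 44.2 to 14.1 CPM.

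Between the libraries, Sox4 was 0.50 higher on the log2 scale in the labelled knockout at the Eomes-positive stage (0.05 to 0.95), from 84 UMIs in each library. Scaling by median-of-ratios or TMM factors shifts this stage by -0.07 or -0.115, which takes the lower end below 0. That ratio came to 0.02 in female nuclei and 0.51 in male nuclei. Sox11 had a ratio of 0.47 in cycling nuclei (0.02 to 0.93; 79 and 90 UMIs), which turned to -0.15 in female nuclei alone (14 and 21 UMIs). In immature nuclei Sox11 was 0.19 higher in the labelled knockout (0.13 to 0.25), with ratios of 0.09, 0.14 and 0.09 in clusters 4, 3 and 20, of which only that of cluster 3 had an interval above 0 (0.05 to 0.23).

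Mature nuclei gave a Sox11 ratio that depended on how they were grouped. Over the class it was 0.28 (0.18 to 0.38). Inside the clusters it was -0.04 in cluster 1 (-0.20 to 0.12), -0.57 in cluster 2 (-0.82 to -0.31) and -0.48 in cluster 0 (-1.24 to 0.12, with 20 UMIs in the library labelled knockout). So the class ratio was positive while each of its 3 clusters was at or below 0. Sox11 levels differed more between clusters, from 53.4 CPM in cluster 1 to 23.0 CPM in cluster 0 of the control, and cluster 1 holds 22% of control mature nuclei but 41.8% of those in the library labelled knockout.

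Neurod1, a factor needed for the survival and differentiation of new granule neurons, was highest in immature cluster 4 in both libraries (74.9 and 70.5 CPM), with a control level as high at the Eomes-positive stage. The control had 9.18 CPM in radial glia-like nuclei, 18.4 in cycling nuclei, 74.4 at the Eomes-positive stage, 53.5 in immature nuclei and 9.38 in mature nuclei. In the library labelled knockout the same stages read 6.45, 47.9, 47.4, 60.4 and 12.4 CPM. The cycling and Eomes-positive values crossed over between the libraries, but they rest on 7 and 15 UMIs and on 51 and 23 UMIs. Both intervals of the ratio reach 0: 1.33, with an upper end of 2.92, and -0.63, from -1.43 to 0.09. With more UMIs, the ratio was 0.17 in immature nuclei (0.01 to 0.33), but it turned to -0.09 in cluster 4 against 0.27 and 0.19 in clusters 3 and 20. It was 0.40 in mature nuclei (0.22 to 0.58), with 0.36, 0.28 and 1.20 in the mature clusters 1, 2 and 0, of which the interval of cluster 2 (-0.23 to 0.88) held 0. These mature levels are low: microglia-like nuclei, which should lack Neurod1, had 7.64 and 12.4 CPM (25 and 33 UMIs), a ratio of 0.69 (-0.09 to 1.51). Per nucleus, mature nuclei had 0.115 and 0.138 UMIs and microglia-like nuclei 0.0168 and 0.0224. After thinning to 2000 UMIs, 1.98% and 2.40% of mature and 1.34% and 1.36% of microglia-like nuclei had a UMI, with intervals that overlap in each library, so the mature ratio is not read apart from background. Female and male mature nuclei gave 0.46 and 0.34. Cerkl overlaps Neurod1 on the same strand in the GRCm38 annotation, so the counts of Neurod1 are uncertain to that extent.

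Tbr1, which follows Eomes in glutamatergic lineages, was highest within the granule lineage in immature cluster 4 (50.3 and 58.4 CPM). It was nearly absent from radial glia-like nuclei (3 and 5 UMIs), at 32.1 and 43.3 CPM at the Eomes-positive stage, at 36.7 and 44.5 CPM in immature nuclei and at 7.81 and 11.1 CPM in mature ones. Cycling nuclei had 1 Tbr1 UMI in the control library, against 11 in the library labelled knockout, a ratio of 3.22 with an interval from 0.96 to 9.17. These 11 UMIs fell below the 50 UMIs set for a call by size. The ratio was 0.28 in immature nuclei (0.09 to 0.47) and 0.51 in mature nuclei (0.31 to 0.70), where female and male nuclei gave 0.73 and 0.55. Markers of Cajal-Retzius cells, a transient neuron type that holds Tbr1, summed to 8.79 and 45.7 CPM in the same mature nuclei, with 5 of 7 higher in the library labelled knockout and 0 of 7 absent from either library. In immature nuclei they summed to 30.1 and 37.4 CPM (7 of 7 higher; Lhx1 and Lhx5 at 0 in the control). Their part in the Tbr1 ratios was not tested. Of the immature clusters, 4 and 3 gave 0.21 and 0.29 and cluster 20 gave -0.26 (-0.91 to 0.34). Inside the mature clusters it was 0.22 in cluster 1 (-0.12 to 0.57), 0.06 in cluster 2 (-0.44 to 0.64) and 0.87 in cluster 0 (-0.03 to 1.57; 288 and 15 UMIs), so every interval within a mature cluster held 0.

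Prox1, the factor that sets granule identity, was present along the entire lineage and highest in immature nuclei. In the control it ran from 163 CPM in radial glia-like nuclei to 247 in cycling, 276 in Eomes-positive and 710 in immature nuclei, then 345 in mature nuclei. The library labelled knockout had 191, 198, 293, 688 and 313 CPM at those stages. A Prox1 UMI was present in 89.3% and 84.7% of immature nuclei and 93.7% and 91.9% of mature nuclei, compared with 10.4% and 8.89% of microglia-like nuclei. The step from the Eomes-positive stage to immature nuclei was 1.36 in the control and 1.23 in the labelled knockout, and the step down to mature nuclei was -1.04 and -1.14.

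In the mature class Prox1 was slightly lower in the library labelled knockout, with a ratio of -0.14 (-0.18 to -0.11; 19397 and 12745 UMIs). By cluster it was -0.27 in cluster 1 (-0.33 to -0.21), -0.45 in cluster 2 (-0.53 to -0.37) and -0.07 in cluster 0 (-0.22 to 0.07), so it was larger than the class ratio in 2 of the 3 clusters and smaller, with an interval that includes 0, in the third. Female mature nuclei gave -0.27 and male ones -0.07. Immature nuclei were at -0.05, with -0.02, -0.05 and -0.22 in clusters 3, 4 and 20, so the ratio was lowest in the most mature of the 3. Prox1 overlaps Prox1os and Gm28172 on the opposite strand in the GRCm38 annotation, and since the use of strand in counting is not stated, reads of these genes may not be fully separated.

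Bcl11b, a zinc finger factor of postmitotic granule and pyramidal neurons, came on late. It was at 55.2 and 35.2 CPM in cycling nuclei (21 and 11 UMIs), at 16.0 and 8.25 CPM in Eomes-positive nuclei (11 and 4 UMIs), at 192 and 153 CPM in immature nuclei and at 301 and 264 CPM in mature ones. Along the immature clusters 4, 3 and 20 it climbed from 87.1 to 198 to 305 CPM in the control and from 74.2 to 168 to 277 CPM in the library labelled knockout, the reverse of the SoxC genes. A UMI was found in 46.1% and 35.4% of immature nuclei and in 92.7% and 90.8% of mature nuclei, against 3.70% and 2.65% of microglia-like nuclei, which are shallower. After thinning to 2000 UMIs the shares were 25.5% and 22.1% in immature, 43.5% and 41.3% in mature and 1.58% and 2.14% in microglia-like nuclei. Eomes-positive nuclei, at 3.74% and 1.57% after thinning, had intervals that overlapped those of microglia-like nuclei, so their Bcl11b is not read as expression.

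In both immature and mature nuclei Bcl11b stood lower in the library labelled knockout. The ratio was -0.32 in immature nuclei (-0.42 to -0.23; 2356 and 1597 UMIs), with -0.30 in female and -0.31 in male nuclei. Within clusters 4, 3 and 20 it was smaller, at -0.23, -0.23 and -0.14, and only cluster 3 had an interval below 0 (-0.37 to -0.10). The mature class gave -0.19 (-0.23 to -0.16), and clusters 0, 1 and 2 gave -0.24, -0.15 and -0.14. Across the 14 classes with at least 50 Bcl11b UMIs in both libraries together, it was lower in 10, and the counting interval lay below 0 in 8 and above 0 in 1. Some of the 8 had background levels. Astrocyte-like nuclei had 8.90 and 5.16 CPM, below the 17.1 and 15.1 CPM of microglia-like nuclei, and CA3-like nuclei had 19.0 and 16.1 CPM, near them. Adarb2 interneuron-like nuclei, which do not descend from recombined cells, were 1 of those 8, at -0.31 (-0.51 to -0.11). Lhx6 interneuron-like nuclei gave 0.03 (-0.11 to 0.17). CA1-like nuclei had 246 and 210 CPM, a ratio of -0.23, but 3 of their 4 clusters did not share that direction. Clusters 7, 13 and 38 gave 0.02, 0.16 and 1.03 (0.50 to 1.64 in cluster 38, from 33 and 143 UMIs), and cluster 11, with 7 nuclei of the library labelled knockout, gave -0.54 (-1.18 to -0.01). Subicular-like nuclei had 286 and 238 CPM and deep-layer excitatory-like nuclei 241 and 209 CPM.

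Zbtb20, a zinc finger repressor that sets hippocampal neuron identity, had its highest levels in the lineage before the mature stage. Microglia-like nuclei had 1004 and 984 CPM. Control CPM was 7043 in radial glia-like nuclei, 10148 in cycling, 11838 in Eomes-positive, 11067 in immature and 4776 in mature nuclei. In the library labelled knockout the values were 6379, 10166, 11420.0, 11086 and 5846 CPM. The ratio was -0.14 in radial glia-like nuclei (-0.19 to -0.10), 0.00 in cycling nuclei (-0.07 to 0.07), -0.05 at the Eomes-positive stage and 0.00 in immature nuclei (-0.01 to 0.01), with -0.03 to -0.04 inside each immature cluster. In mature nuclei it was 0.29 (0.28 to 0.30). All mature clusters and both sexes showed it: 0.23, 0.17 and 0.25 in clusters 0, 1 and 2, and 0.30 and 0.28 in female and male nuclei. The step from immature to mature nuclei was -1.21 in the control library, against -0.92 in the library labelled knockout. Scaling by TMM factors shifted all ratios of the Eomes-positive stage by -0.115, and the other shifts by TMM or median-of-ratios factors were smaller, at -0.01 to -0.08. The immature Zbtb20 ratio of 0.00 turns negative under both. Under both, the immature intervals of Neurod1, Neurod2 and Neurod6, with lower ends of 0.01, 0.07 and 0.01, also reach below 0. Zbtb20 overlaps Gm19522, Gm9968 and Gm15713 on the opposite strand.

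Neurod2, a factor of excitatory neurons, rose into immature nuclei and stayed near that level in mature ones. It had 23.3 and 30.9 CPM at the Eomes-positive stage (16 and 15 UMIs), 64.2 and 74.3 CPM in immature nuclei and 57.2 and 62.2 CPM in mature ones, and its step between the last 2 was only -0.17 and -0.26. Microglia-like nuclei had 20.5 and 21.8 CPM (67 and 58 UMIs), so the Eomes-positive level is not read as expression. The immature ratio of 0.21 (0.07 to 0.36) split by sex into 0.60 in female nuclei (235 and 317 UMIs) and -0.11 in male nuclei (328 and 249 UMIs). Mature nuclei showed the same split, with 0.32 in female nuclei and 0.00 in male nuclei around a class value of 0.12. Each of the mature clusters was higher than the class: 0.43 in cluster 0, 0.26 in cluster 1 and 0.72 in cluster 2. In cluster 2 Neurod2 stood at 37.7 and 62.1 CPM (138 and 1578 UMIs).

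Neurod6, its close relative, gave the largest ratio of the members in mature nuclei. The control class had 384 UMIs and 6.83 CPM (6.17 to 7.55), and the library labelled knockout had 840 UMIs and 20.6 CPM (19.2 to 22.0). The ratio was 1.59 (1.42 to 1.77), and the sexes gave 1.43 and 1.58. In immature nuclei the libraries lay closer, at 34.2 and 39.6 CPM, with a ratio of 0.21 (0.01 to 0.41). Cycling nuclei had 10.5 and 19.2 CPM (4 and 6 UMIs), a ratio of 0.81 (-1.21 to 3.14). Eomes-positive nuclei had 29.2 and 53.6 CPM (20 and 26 UMIs), a ratio of 0.87 (-0.02 to 1.8). The intervals of both stages hold the mature ratio of 1.59, so their ratios are not read as smaller. Microglia-like nuclei, which should lack Neurod6, had 28.4 and 24.5 CPM, above the cycling levels and near the control Eomes-positive level. Both early ratios are therefore not read apart from background. The Eomes-positive stage split by sex, with 5 and 13 UMIs in female nuclei and 7 and 4 in male nuclei. Along the immature clusters the ratio was 0.15, 0.13 and then 0.56 in cluster 20 (0.17 to 0.95). From immature to mature nuclei Neurod6 fell by 2.32 on the log2 scale in the control library and by 0.94 in the library labelled knockout, a difference of 1.38 between the steps that was not tested.

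All 3 clusters of the mature class had higher Neurod6 in the library labelled knockout, with intervals above 0. Cluster 1 had 16.6 and 31.3 CPM (170 and 441 UMIs), a ratio of 0.91 (0.66 to 1.18), which is under the 2-fold mark. Cluster 2 had 6.55 and 14.9 CPM (24 and 379 UMIs), a ratio of 1.16 (0.59 to 1.85), and cluster 0 had 4.50 and 16.1 CPM (190 and 20 UMIs), a ratio of 1.87 (1.10 to 2.51). The interval of cluster 1 overlaps both others, so the clusters are not ordered. Counting clusters 0 and 2 together gave 1.68 (1.44 to 1.93).

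**Figure D2:**
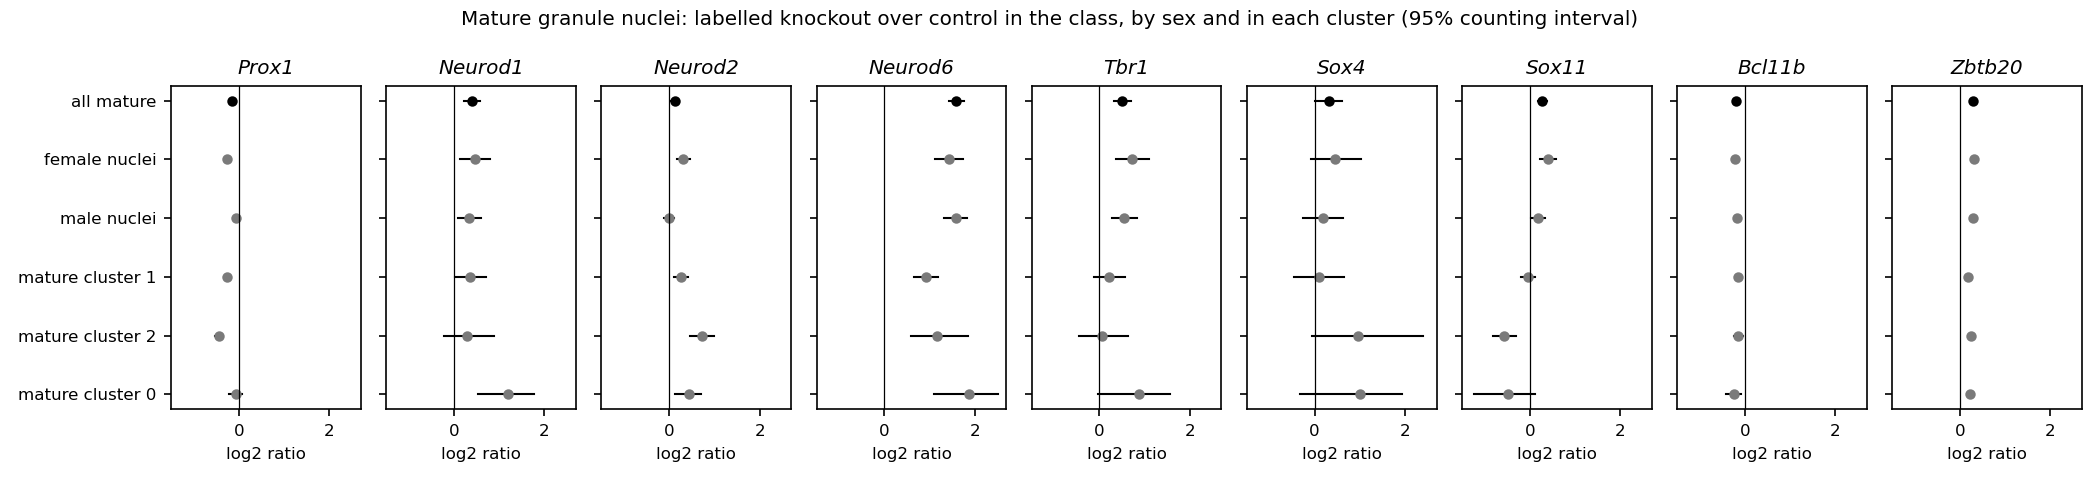
Log2 ratio of labelled knockout over control for 9 factors in mature granule-like nuclei, over the class, in female and male nuclei and in each mature cluster, with 95% counting intervals and Eomes left out for want of UMIs. Neurod6 lies above 0 in every row, from 0.91 to 1.87, Zbtb20 and Bcl11b keep their side in every row, and Sox11 is above 0 over the class but at or below 0 in the clusters.

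Low Neurod6 levels have to be read beside free RNA, since pyramidal neurons hold much of this transcript. CA1-like nuclei had 128 and 121 CPM and CA3-like nuclei 139 and 138 CPM. In UMIs per nucleus, mature granule-like nuclei had 0.0837 in the control library, against 0.229 in the library labelled knockout. Microglia-like nuclei, which should lack the gene, had 0.0626 and 0.0441, and Lhx6 interneuron-like nuclei had 0.0700 and 0.0745. A UMI was found in 6.54% and 17.6% of mature nuclei, in 5.38% and 4.14% of microglia-like nuclei and in 5.62% and 5.65% of Lhx6 interneuron-like nuclei, at median depths of 11736 and 10659, 2130 and 1718.5, and 17744.5 and 15080 UMIs. Per nucleus, without regard to depth, the control mature value thus lay close to these background classes. That of the library labelled knockout lay above them. By CPM, mature nuclei had 6.83 and 20.6, below the 28.4 and 24.5 of microglia-like nuclei. Lhx6 interneuron-like nuclei had 3.77 and 4.65 CPM. After thinning each nucleus to 2000 UMIs, which kept 4585 and 3662 mature, 823 and 515 microglia-like and 799 and 777 Lhx6 interneuron-like nuclei, the shares were 1.31% and 4.61% in mature nuclei, 3.77% and 4.27% in microglia-like nuclei and 0.626% and 1.42% in Lhx6 interneuron-like nuclei, so at equal depth the mature share was below the microglia-like one in the control and within its interval (2.7% to 6.4%) in the library labelled knockout. Against Lhx6 interneuron-like nuclei, the control mature share lay within their interval (0.203% to 1.45%), and that of the library labelled knockout lay above theirs (0.709% to 2.52%). Between the libraries, only the astrocyte-like interval among the background classes listed next lay clear of 0, upward. The Neurod6 ratio was -0.21 in microglia-like nuclei (-0.70 to 0.26), 0.30 in Lhx6 interneuron-like (-0.25 to 0.86), 0.69 in Adarb2 interneuron-like (-0.05 to 1.46; 26 and 41 UMIs) and 0.46 in astrocyte-like nuclei (0.06 to 0.86; 104 and 113 UMIs). Thinned shares were 0.514% and 1.94% in Adarb2 interneuron-like and 2.15% and 3.10% in astrocyte-like nuclei. The part of free RNA in the mature ratio was not tested. Summed CA3 markers in mature nuclei were 567 CPM in the control library, against 446 CPM in the library labelled knockout, with 116 CPM of CA1 markers in each. In immature nuclei the CA3 markers summed to 641 and 695 CPM, so these sums are not read as a measure of free RNA.

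A gene was counted by size when the libraries differed at least 2-fold and the higher one reached 50 UMIs and 10 CPM. None of the 3 members that met the minimum in cycling nuclei was counted (all genes: 2.98% of 1777), none of 6 at the Eomes-positive stage (1.26% of 2702), none of 9 in immature nuclei (0.326% of 9516) and 1 of 8 in mature nuclei, Neurod6 (3.27% of 8431). The counts of 0 and 1 among so few members are near the background. Over members with 50 or more UMIs summed over the libraries, the median ratio was 0.01 in cycling nuclei (5 members; all genes 0.03), 0.07 at the Eomes-positive stage (6; 0.05), 0.17 in immature nuclei (9; 0.07) and 0.29 in mature nuclei (9; 0.03). The mature median takes in the class ratios of Neurod1, Sox11 and Tbr1, which have the limits of background or cluster given above. No shift of the members as a group is read from it.

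**Figure D3:**
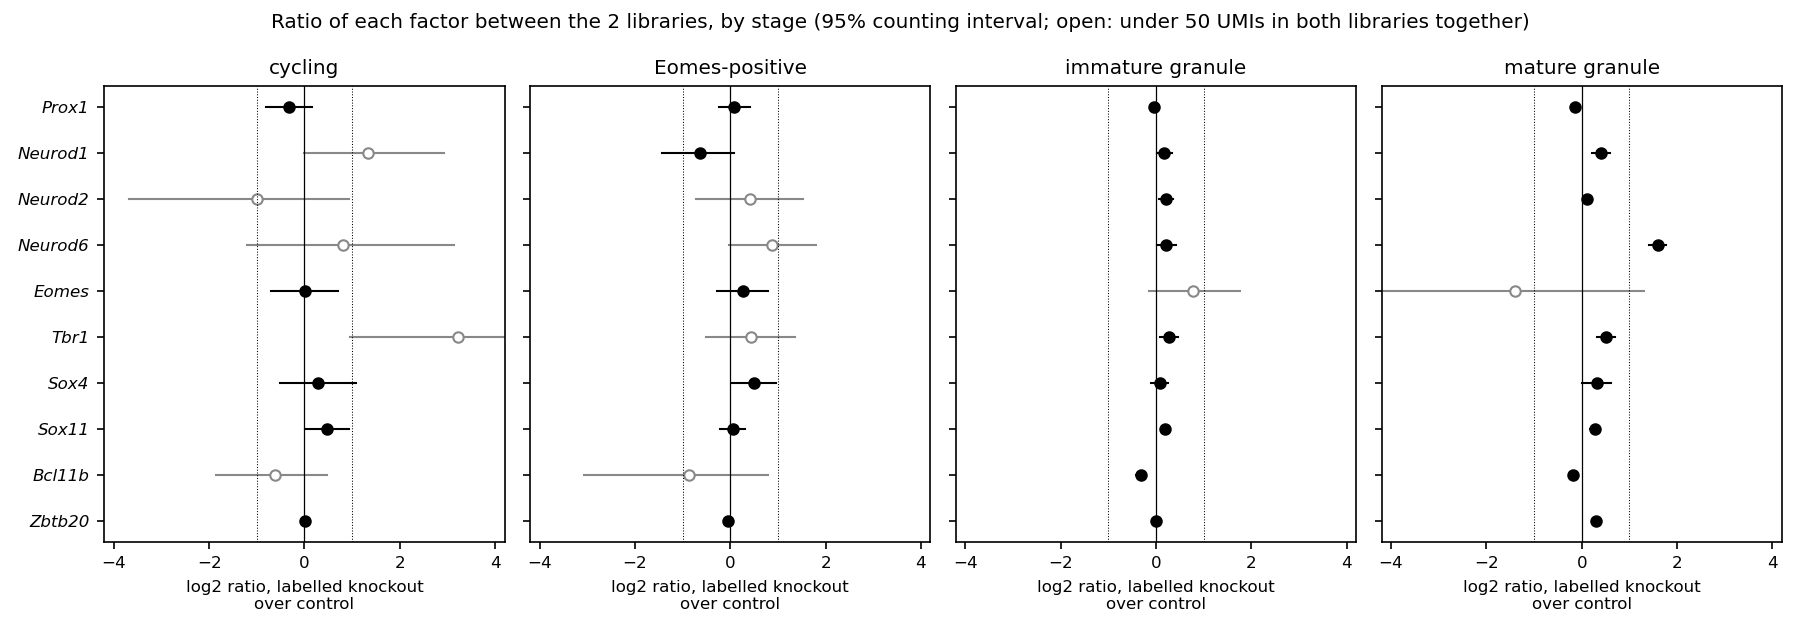
Log2 ratio of labelled knockout over control for the 10 factors at 4 stages, with 95% counting intervals, cut off at the edge of the axis where they run beyond it, open points for under 50 UMIs in both libraries together and dotted lines at 2-fold. Neurod6 in mature nuclei, at 1.59, is the only filled point beyond 2-fold.

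Other factors of the neurogenic programme were taken from a list of 35. Of these, 16 met the minimum in cycling nuclei, 18 at the Eomes-positive stage, 22 in immature nuclei and 17 in mature nuclei. The size rule was passed once, downward, by Foxp1 in cycling nuclei, and by 0 of the listed factors at the other 3 stages. Over all genes it was passed by 2.98%, 1.26%, 0.326% and 3.27% at these stages, so 1 count among the 16 cycling factors is no result about the list. Foxp1, a forkhead factor, had 95 and 36 UMIs, or 249.7 and 115 CPM, a ratio of -1.11 (-1.71 to -0.55).

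Across 19 classes that held 50 or more nuclei of each library, the members fell into different patterns. Prox1 was highest in immature nuclei, and outside the 4 stages it was next highest in oligodendrocyte-like nuclei (211 and 231 CPM), then in radial glia-like nuclei and in Adarb2 interneuron-like nuclei (108 and 109 CPM), while CA1-like nuclei had 3.73 and 3.30 CPM. Sox11 and Sox4 were highest in Eomes-positive nuclei, and committed oligodendrocyte precursor-like nuclei also had 80.8 and 58.6 CPM of Sox4. Microglia-like nuclei had 40.7 and 34.3 CPM of Sox4. Neurod6 was highest in CA2-like nuclei at 169 and 174 CPM, above CA3-like and CA1-like nuclei. Neurod2 was highest in immature nuclei, with 52.4 and 51.9 CPM in CA2-like nuclei. In the control, mature nuclei at 57.2 CPM and CA2-like nuclei did not differ in Neurod2 beyond their counting intervals.

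Tbr1 had its highest control level in Cajal-Retzius-like nuclei (52.1 CPM; 42.4 CPM in the library labelled knockout), with an interval that overlapped that of immature nuclei. Bcl11b was highest in mature granule-like nuclei and near its lowest in mossy cell-like nuclei, which are also excitatory neurons of the dentate gyrus (4.24 and 3.74 CPM, from 8 and 9 UMIs). Their control interval (1.83 to 8.35 CPM) holds the level of oligodendrocyte-like nuclei, 4.41 CPM, so the 2 classes are not ordered. Zbtb20 was lowest in subicular-like nuclei (87.9 and 140 CPM). Eomes outside its 2 stages did not exceed 2.74 CPM in any class of either library.

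**Figure D4:**
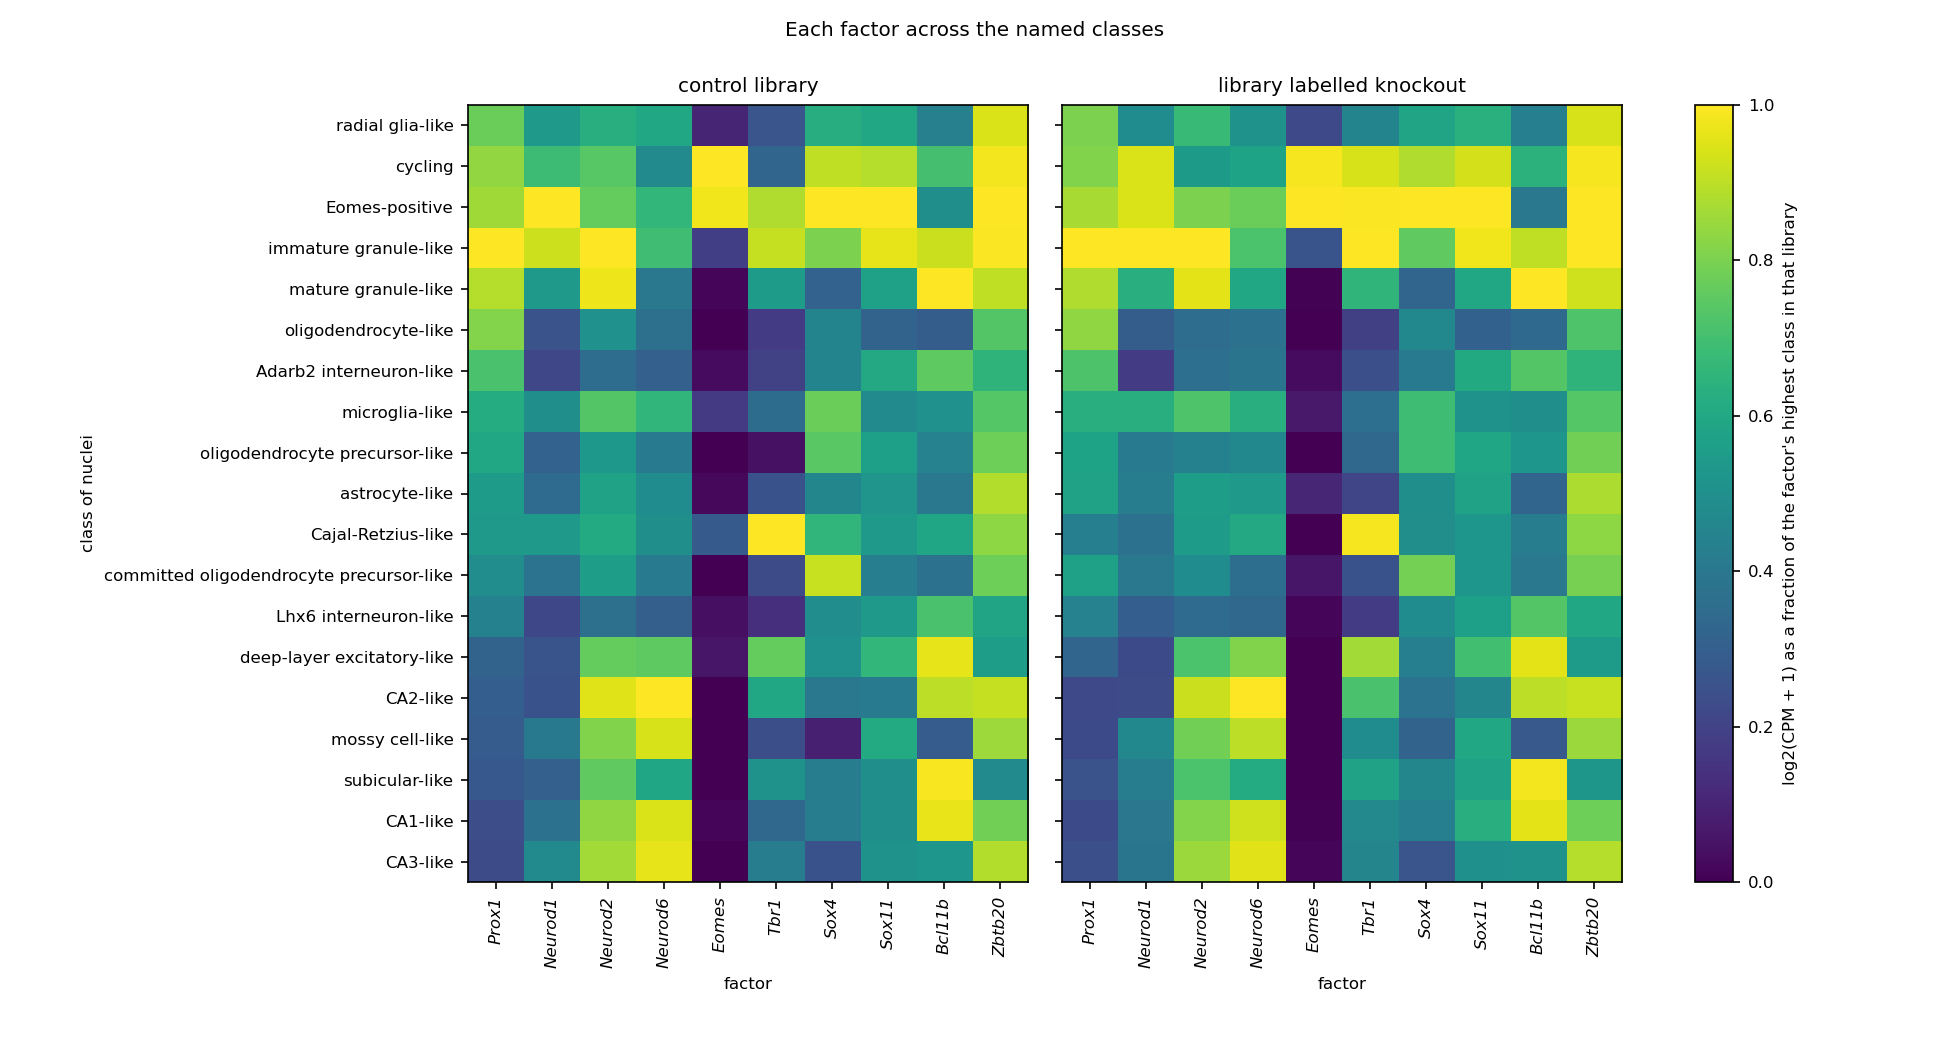
Heat map of each factor over the 19 classes in both libraries, colored by log2(CPM + 1) as a fraction of the factor's highest class in that library, so that columns compare classes and not genes. Prox1, Sox11 and Eomes are brightest in the stages of the granule lineage, and Neurod6 in CA2-like, CA3-like, CA1-like and mossy cell-like nuclei.

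Outside the 4 stages, radial glia-like nuclei included, 1 member passed the size rule. Among 150 pairs of a member and 1 of the 15 other classes, 69 met the minimum and 1 was counted, Sox11 in CA1-like nuclei. Over all genes, 1.51% of 115276 such pairs were counted in those classes, and 3.51% of 8266 genes in CA1-like nuclei, so a count of 1 among 69 is at the background. Sox11 had 863 and 1518 UMIs there, or 19.1 and 43.1 CPM, a ratio of 1.17 (1.05 to 1.29). Female nuclei gave 1.45 and male nuclei 1.13. By cluster the ratio was 1.56 in cluster 7, 0.72 in cluster 13 and -0.41 in cluster 38 (-0.71 to -0.11), while cluster 11 had 1069 control nuclei and 7 of the library labelled knockout. Clusters 7 and 13 held 644 and 497 of the 2298 control CA1-like nuclei and 1338 and 449 of the 2033 in the library labelled knockout, so only cluster 11 of the 4 was nearly all from 1 library. Subicular-like nuclei had a Sox11 ratio of 0.74 (0.52 to 0.96) and deep-layer excitatory-like nuclei 0.34 (0.19 to 0.49), whereas CA3-like nuclei were at -0.02 (-0.20 to 0.15).

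No other member with 50 or more UMIs in a pyramidal class had a ratio as large as that of Sox11 in CA1-like nuclei. The largest fall among them was that of Neurod1 in CA3-like nuclei, -0.76 (-1.13 to -0.40; 199 and 97 UMIs). Its levels there were only 6.76 and 3.98 CPM, below the 7.64 and 12.4 CPM of microglia-like nuclei. Neurod6 was at -0.08 in CA1-like, -0.01 in CA3-like and 0.04 in CA2-like nuclei, and at 0.48 in deep-layer excitatory-like nuclei (0.32 to 0.64). Its CA1-like value did not hold inside the class: clusters 7, 11, 13 and 38 gave 0.10, 0.37, 0.14 and 0.48, and female and male nuclei gave -0.41 and 0.14. Tbr1 was at 0.85 in CA1-like nuclei (0.52 to 1.20) from 126 and 178 UMIs, with 1.68 in female and 0.39 in male nuclei. Its levels there were only 2.80 and 5.06 CPM, and microglia-like nuclei had 3.06 and 3.01 CPM. Thinned shares were 0.696% and 1.03% in CA1-like and 0.608% and 0.388% in microglia-like nuclei. Their intervals overlap in each library, so this ratio is not read apart from background. Zbtb20 had a ratio of 0.67 in subicular-like nuclei (0.57 to 0.77), where its level was lowest, and of -0.16 in CA1-like nuclei (-0.18 to -0.14). All 4 CA1-like clusters also pointed away from the class for Zbtb20, at 0.23, 0.27, 0.25 and 0.32 in clusters 7, 11, 13 and 38.

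**Figure D5:**
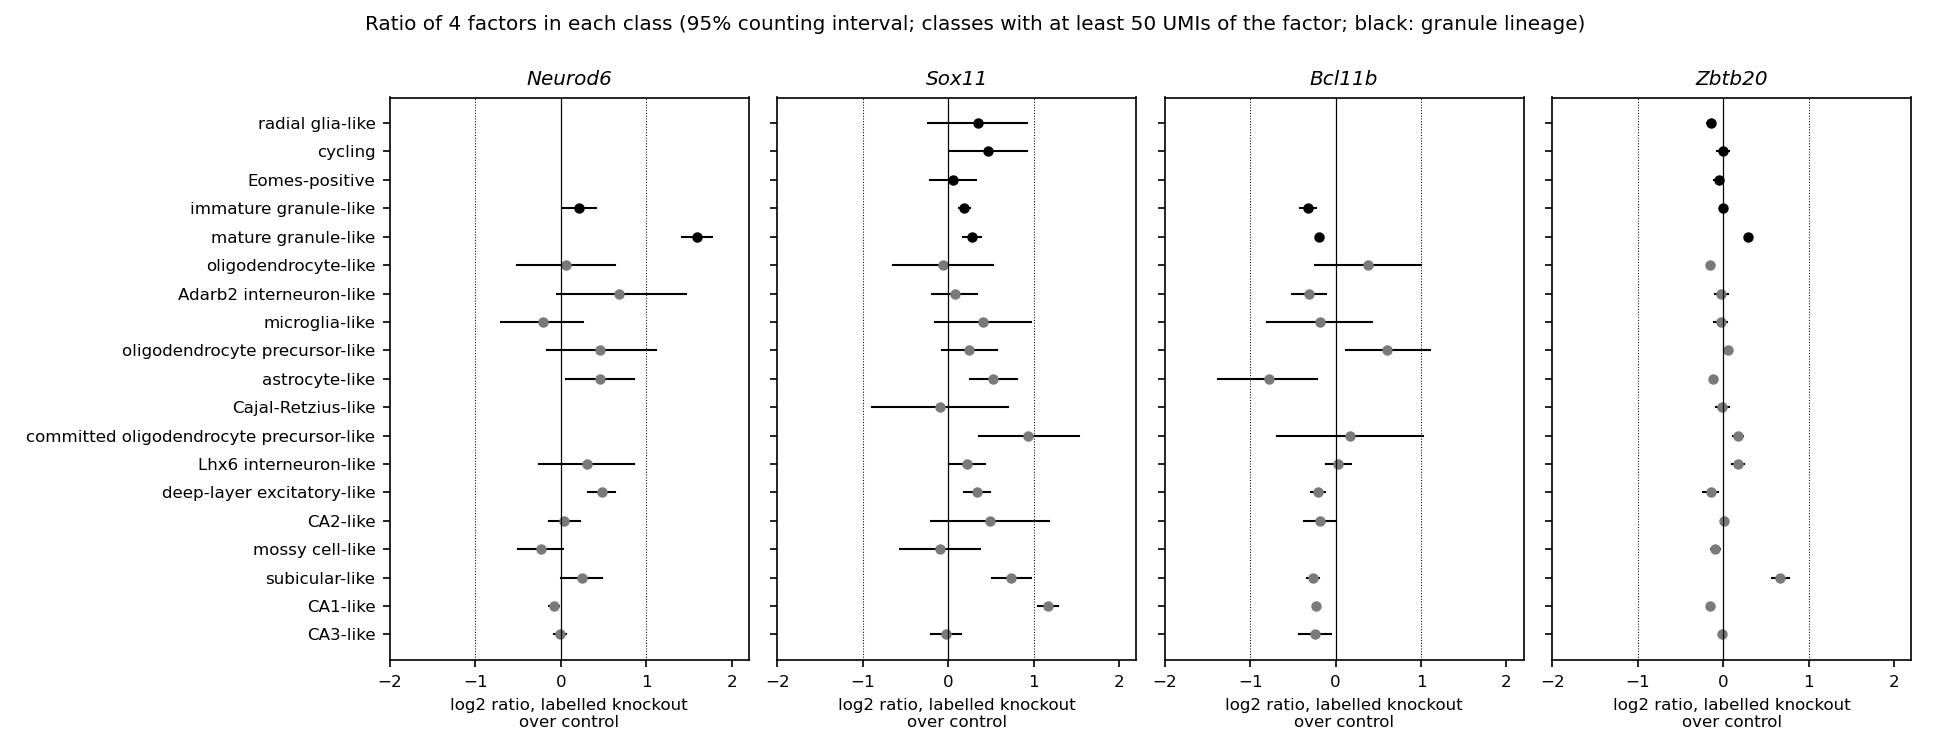
Log2 ratio of labelled knockout over control for Neurod6, Sox11, Bcl11b and Zbtb20 in each class with at least 50 UMIs of the factor over both libraries, with 95% counting intervals and dotted lines at 2-fold and the granule lineage in black. Neurod6 passes 2-fold in mature granule-like nuclei (1.59) and Sox11 in CA1-like nuclei (1.17), and Bcl11b lies below 0 in 10 of 14 classes. Some of these 10 hold Bcl11b only at background levels.

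The genes whose class pattern was most like each member were found by Pearson correlation of log2(CPM + 1) over 38 points, the 19 classes in each library, among 12039 genes with at least 20 CPM in some class. The points share libraries and classes, and r is given as a description. Eomes was closest to Lockd, Neurod4 and Insm1 (r from 0.942 to 0.948), and Zbtb20 to the overlapping Gm9968 and Gm15713 and to Zhx2 (0.989, 0.957 and 0.893). Prox1 was closest to its antisense partner Prox1os (0.938), then Spata13 and Marcksl1. Sox11 was closest to Ptpn12, Ncoa5 and Kdm1a, Sox4 to Zfp326, Smarce1 and Obi1, and Neurod1 to Jpt1, Igfbpl1 and Kdm1a (0.876 to 0.927 across these). Neurod6 was closest to Tbata, Nr4a3 and Slc17a7, Neurod2 to Slc17a7, Zdhhc23 and Nrgn, Bcl11b to Itpr1, Cntnap5b and Lmo3, and Tbr1 to Zfp341, Foxo6 and Fam168a. Marcksl1, Igfbpl1, Neurod4 and Insm1 were among the markers that named the classes.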

How the data were processed

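Single nuclei of 2 hippocampal libraries were analysed, 1 per group, so the samples carry no replicate. Per the file headers the authors deposited raw UMI counts per gene and nucleus made with Cell Ranger 8.0.1. The submitters' processing notes name the build mm39. The gene annotation, intron counting and use of strand are not given in the sources used here. A GENCODE annotation of GRCm38 held 31961 of the 33696 gene IDs (94.85%) and served for overlaps between genes only. The promoter windows came from RefSeq.

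Nuclei with under 500 genes or over 5% mitochondrial UMIs were left out, as were doublets called with Scrublet in scanpy 1.11.5 at an expected rate of 0.1 (3277 control nuclei and 2474 of the library labelled knockout). Both libraries were clustered together in Python 3.11.15 without the 10 members, Xist, Tsix, Y-linked or mitochondrial genes: 3000 variable genes, 30 principal components, 15 neighbours and Leiden resolution 2 (leidenalg 0.10.2), giving 58 clusters. Names came from 23 marker sets and required 3 markers, and 8 clusters stayed unnamed. UMIs were summed per library and class. Ratios had 0.5 UMI added to each sum. Intervals are exact Poisson for sums, conditional binomial for ratios and Clopper-Pearson for shares. The ratio code was tested on simulated data.

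The members and lists were chosen with earlier results of these data known. Genes named were all members, Cic and Etv4 as a check of labels, listed factors past the size rule (up to 6 a stage) and the 3 genes closest to each member. Alternatives varied the clustering, doublets, filters, sex of the nuclei, depth, scaling and minimum counts.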

Additional observations from a re-analysis of the deposited data

Results flagged for a closer look

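Zbtb20 had ratios of opposite sign at different stages, each with a counting interval clear of 0. At the Eomes-positive stage it was slightly lower in the library labelled knockout, with a log2 ratio of -0.0518 (8116 and 5540 UMIs), and female nuclei alone gave 0.00. In mature granule-like nuclei it was higher, with 0.292 (268403 and 238340 UMIs). The difference between the stages was not tested, since each group is 1 library.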

How the results depend on the processing

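No paired analysis was possible because each group has 1 library. Neurod6 was counted among mature nuclei under the alternatives tried, with 1 exception chosen after seeing the data: in cluster 1 alone, the mature cluster with many nuclei of both libraries, 0 members were counted. At the other stages no member was counted under any alternative run. Counts of all genes past 2-fold moved more. In cycling nuclei 53 became 85 with called doublets kept, 20 in female nuclei, 28 in male nuclei and 17 after thinning to 2000 UMIs. At the Eomes-positive stage 34 became 17 in female nuclei, 21 in male nuclei and 21 after thinning. In immature nuclei 31 became 53 in female and 49 in male nuclei. With a minimum of 20 UMIs and none on CPM, the counts were 249 in cycling, 208 in Eomes-positive, 217 in immature and 950 in mature nuclei. Member ratios kept their sign in 83 of 100 alternative values in cycling nuclei, 86 of 100 at the Eomes-positive stage, 87 of 100 in immature nuclei and 118 of 119 in mature nuclei. The mature alternatives took clusters 0 and 2 together and not singly. Taken singly, these clusters gave Sox11 ratios of -0.48 and -0.57, opposite to the class. The steps from immature to mature nuclei kept their sign in all 140 values. Few UMIs limit the cycling and Eomes-positive stages, where most members had wide intervals.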
